A study of Mus musculus with 13 samples.

Results

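Cd34-high fibroblasts of Wnt1-driven mammary tumours are cells that carry many transcripts of Cd34, a sialomucin of the cell surface. They were chosen from the 2 tumour libraries as barcodes with 500 to 7500 genes, at most 10% of unique molecular identifiers (UMIs, each counting 1 captured transcript) from mitochondrial genes, and at least 50 UMIs of the fibroblast genes Dcn, Lum and Col1a2 per 10,000. They also held no UMI of Epcam, Pecam1, Rgs5, Sox10, Ptprc or Myog, at least 5 Cd34 UMIs per 10,000, and at least 3 Cd34 UMIs. This gave 3657 members among 13153 tumour fibroblasts and 15950 tumour barcodes, while all 13 libraries of the series held 120355 barcodes and 100523 fibroblasts by the same limits. The comparison cells, called Cd34-zero below, were the 3924 fibroblasts of the same tumours with 0 Cd34 UMIs and 3000 or more UMIs in all.

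The study profiled mouse mammary fibroblasts over development, under hormones and in tumours, by droplet sequencing with a 3′ chemistry. The raGFP-Wnt1 mouse carries the MMTV-Wnt1 transgene, which drives the ligand Wnt1 from a mammary tumour virus promoter, and 1 Pdgfra allele with a knocked-in GFP (Pdgfra-GFP KI/+ MMTV-Wnt1 T/+), on a mixed C57BL/6 and FVB background (the MMTV-Wnt1 strain was FVB/NJ and the reporter strain C57BL/6). Both tumour and both hyperplasia libraries share these alleles, come from females and hold sorted GFP-positive cells, so cells without the Pdgfra reporter were outside the sort. Tumour 1 and hyperplasia 1 come from the same mouse aged 45 weeks, and tumour 2 and hyperplasia 2 from a mouse aged 17 weeks. The puberty (4 weeks) and adult virgin (9 weeks) libraries hold sorted Lineage-negative, CD24-negative stroma of normal C57BL/6 females, 2 animals pooled for each. The remaining libraries, used here only for counts and shares of cells, hold the same sorted stroma 14.5 days into pregnancy, at 10 days of nursing (lactation) and after 4 days of involution, together with 2 placebo and 2 drug libraries of females aged 9 weeks, the drug being estrogen with the progestin medroxyprogesterone acetate. Age, mouse and tumour cannot be told apart with 1 tumour at each age.

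Fibroblasts that carry Cd34 together with the surface proteins Ly6a (Sca-1) and Dpp4 and the secreted peptidase inhibitor Pi16 are found in the adventitia of most organs, where they are regarded as a reserve from which other fibroblasts arise. In tumours, fibroblasts are often divided into an inflammatory kind, which secretes cytokines and complement, and a myofibroblastic kind, which contracts through smooth muscle actin (Acta2) and lays down dense collagen. The plan of the comparisons was to ask how these programmes lie in Cd34-high and Cd34-zero cells of one tumour, and whether the same division exists in the hyperplastic gland of the same mouse.

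Depth was close within each tumour. The median was 10306 UMIs in Cd34-high and 10743 in Cd34-zero cells of tumour 1, and 18638 against 18488 in tumour 2. In hyperplasia the Cd34-zero cells were shallower, with medians of 6522 and 6142 UMIs against 10703 and 10974. A doublet score marked 10.3% of members in tumour 1 and 0.810% in tumour 2, against 3.28% and 2.20% of Cd34-zero cells. Epithelial barcodes, which should lack the gene, gave a Cd34 UMI in 4 of 38 cells of tumour 1 and 3 of 179 cells of tumour 2, and none of these reached the limit for members. Between 5 and 51 barcodes were shared by pairs of libraries, and 0 members by the tumours.

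The label was checked against its markers, described here without a test because the cells were proposed with these markers. Summed over cells and scaled to a total of 1000000 UMIs (CPM), Ly6a stood at 2120.3 against 428 CPM in tumour 1 and 1355 against 253 CPM in tumour 2 for Cd34-high against Cd34-zero cells. Dpp4 stood at 337 against 28.1 CPM in tumour 1 and 136 against 15.5 CPM in tumour 2, and Tnxb, the matrix protein tenascin XB, at 867 against 62.3 CPM in tumour 1 and 456 against 27.5 CPM in tumour 2. All 3 were higher in the members of both tumours, and their levels were lower in tumour 2 than in tumour 1. Cells of 3000 or more UMIs were thinned to 3000, which left out 86 and 4 members. Dpp4 then gave a UMI in 59.8% (58.1 to 61.5) of members of tumour 1 and 30.5% (24.7 to 36.7) of members of tumour 2. These are exact 95% intervals of counting error only. Cd34-zero cells gave 7.74% and 4.52% and epithelial barcodes 0% and 0.562%. Without thinning the members gave 86.4% and 70.8%. The fibroblast genes of the rule were present in the members, with Dcn at 7284 and 5836 CPM. Pdgfra, whose promoter drives the sorted GFP, was at 176 against 147 CPM in tumour 1 and 122 against 108 CPM in tumour 2.

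The limit on Cd34 cut through a continuous range. In tumour 1 the 366 cells just outside it (4 to 5 Cd34 UMIs per 10,000) held Dpp4 at 187 CPM, Tnxb at 561 and Pi16 at 548. The 339 cells just inside (5 to 6 per 10,000) held 218, 655 and 712 CPM of the same genes. In tumour 2 the 100 cells just outside held Dpp4 at 72.5 CPM and the 62 just inside at 95.3 CPM. Pi16 stood there at 252 and 372 CPM, against 159 in Cd34-zero cells. The members are therefore a range of Cd34 levels.

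Cd34-high cells were 38.2% of the fibroblasts of tumour 1 (37.2 to 39.3, exact 95% interval, 3410 of 8917 cells) and 5.83% of those of tumour 2 (5.14 to 6.58, 247 of 4236 cells). The same limits gave 38.5% and 40.1% in the hyperplastic glands, and 40.4% (involution) to 66.5% (1 of the drug-treated glands) in the other 9 libraries. As sequenced, the interval of tumour 1 held the share of its own hyperplastic gland, and tumour 2 stood below every other library. The difference of mean shares was -17.3 percentage points for tumours minus hyperplasia (two-sided exact permutation p = 0.333, the smallest that 2 against 2 can give). Within mice the difference was -0.226 points at 45 weeks and -34.3 points at 17 weeks. Without tumour 2 the difference was -1.06 points, and without tumour 1 it was -33.5 points. With a Cd34 limit of 10 per 10,000 it was -8.93 points, with tumour 1 at 21.3% and its own hyperplasia at 18.2%. With a fibroblast limit of 150 per 10,000 it was -4.40 points, at 39.4% and 6.92% in the tumours and 31.5% and 23.6% in hyperplasia. Fibroblasts of 5000 or more UMIs, each thinned to 5000, gave 38.2% and 8.06% in the tumours and 40.6% and 43.4% in hyperplasia. This left out 1094 and 303 shallower fibroblasts in the tumours and 703 and 1304 in hyperplasia. At this depth the interval of tumour 1 (37.10 to 39.27) no longer held the share of hyperplasia 1, but it overlapped that gland's own interval (39.25 to 41.90). These intervals cover cells of 1 library each and do not test a difference between libraries.

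**Figure D1:**
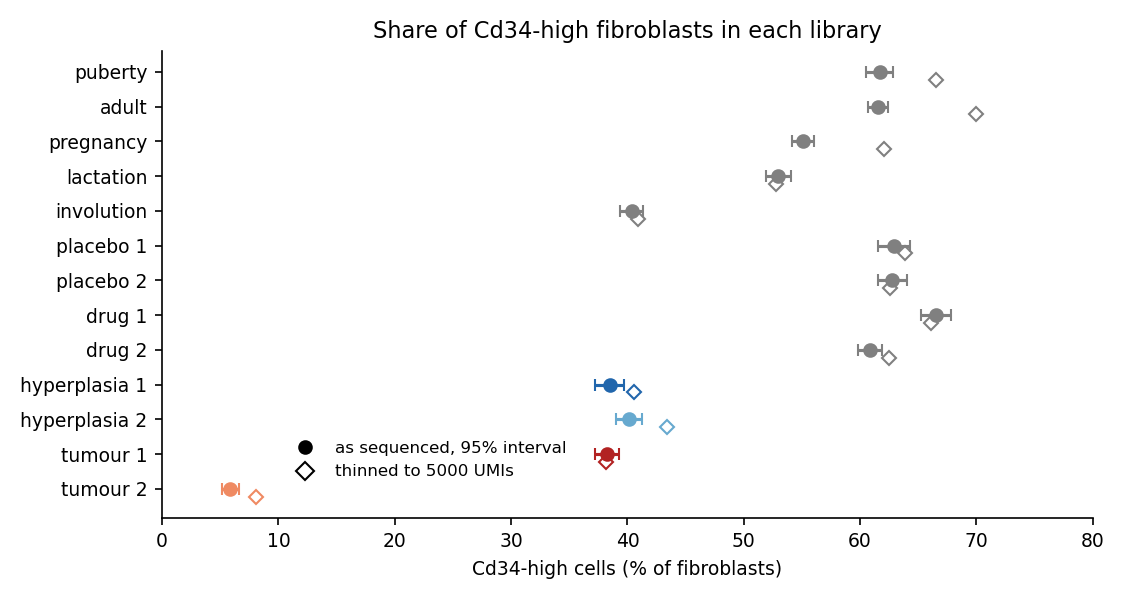
Share of Cd34-high cells among fibroblasts (horizontal axis, %) in each of the 13 libraries. Filled points are shares as sequenced with exact 95% binomial intervals. Open diamonds are shares among fibroblasts of 5000 or more UMIs, each thinned to 5000, which in pregnancy left out 8494 of 11501 fibroblasts. Tumour 1 (38.2%) lies beside both hyperplastic glands and tumour 2 (5.83%) lies below all other libraries.

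Levels of other genes moved in steps with the Cd34 class. In tumour 1, Pi16 went from 182 CPM in cells with 0 Cd34 UMIs through 361 below the limit to 1086, 2217 and 3150.4 CPM at 5 to 10, 10 to 20 and 20 or more Cd34 UMIs per 10,000. Acta2 went the other way over the same 5 classes, from 539 through 209, 44.7 and 17.8 to 5.11 CPM, and Cdkn2a from 299 to 2.24 CPM. Il6, which encodes the cytokine interleukin-6, was highest in the middle, at 262 CPM with 0 Cd34 UMIs, 733 at 5 to 10 and 469 at 20 or more. Tumour 2 held 199 members at 5 to 10 and 45 at 10 to 20 per 10,000. Its Acta2 fell over 0 UMIs, below the limit, 5 to 10 and 10 to 20 from 906 through 631 and 147 to 63.1 CPM, and its Tnc went from 773 through 1274 and 603 to 400.1 CPM. These levels are a description of 1 library each.

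**Figure D2:**
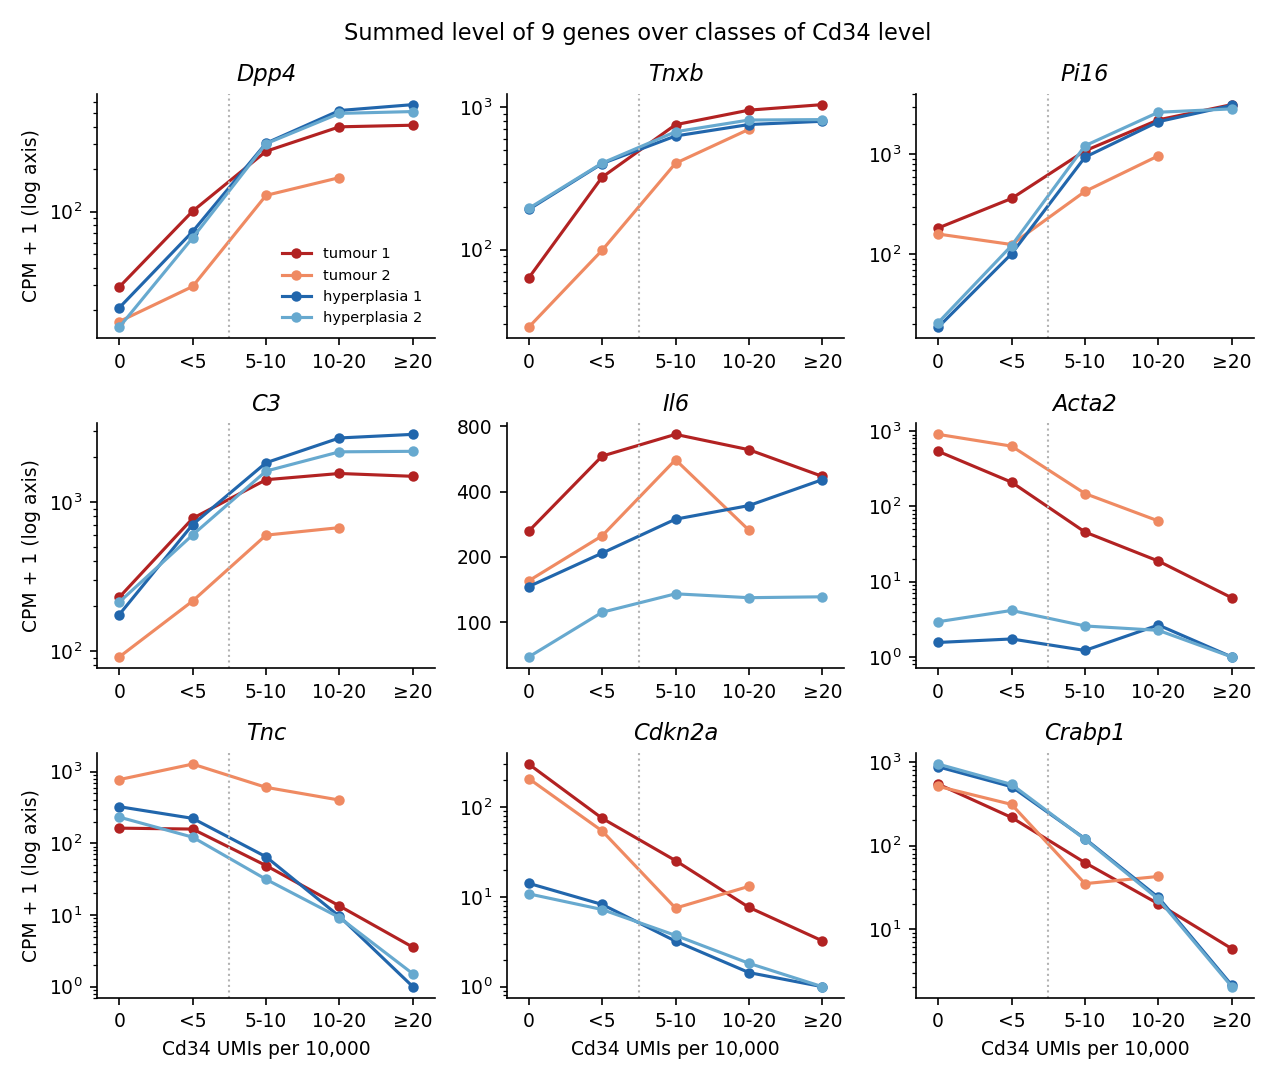
Summed level (CPM + 1, log axis) of 9 genes over classes of Cd34 level (horizontal axis, Cd34 UMIs per 10,000) in both tumours and both hyperplastic glands, with the dotted line at the limit for members; classes under 20 cells are not drawn. Dpp4 and Tnxb rise along the drawn classes in all 4 libraries, Pi16 rises in all but tumour 2, where it dips below the limit, and Acta2 and Cdkn2a fall in tumour 1 from 539 and 299 CPM to 5.11 and 2.24 CPM.

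Between Cd34-high and Cd34-zero fibroblasts of the same tumours, limma-voom on the summed counts (library as block, Benjamini-Hochberg adjusted p under 0.05) called 2462 of 14955 tested genes higher in the members (16.5%) and 2684 lower (17.9%). Without tumour 1, whose members are far more numerous, 1984 genes were called, 1065 higher and 919 lower. More genes were higher than lower also without hyperplasia 1 (2003 and 1802), with tumour sums only (2197 and 1915) and within the interquartile range of the members' UMI counts, the middle UMI range (2101 and 2006). The balance of the calls thus depended on the setting. In this and every later fit that leaves out a tumour or a gland, the 1 library left in that group is assumed to vary like the other groups, whose spread it borrows. Leaving out the library block gave 2288. Values below are summed levels in CPM followed by the log2 fold change ± its standard error, over 2 tumours.

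Efhd1, a calcium-binding mitochondrial protein (GRCm38 chr1:87264363-87310839), was at 165 against 0.976 CPM in tumour 1 and 40.3 against 0.300 CPM in tumour 2 (7.27 ± 0.34, adjusted p = 1.23e-05). Sema3c, a secreted guidance semaphorin, was at 1128 against 26.8 CPM in tumour 1 and 332 against 16.6 CPM in tumour 2 (4.90 ± 0.22, adjusted p = 1.11e-05), and Tek, the angiopoietin receptor Tie2, at 84.4 against 3.27 CPM in tumour 1 and 23.8 against 2.5 CPM in tumour 2 (4.22 ± 0.30, adjusted p = 7.33e-05). Each of these was higher in both tumours, as the rule for naming them asks, with the larger level in tumour 1. Sfrp4, a secreted Wnt antagonist, was at 383 against 14.2 CPM in tumour 1 and 224 against 6.87 CPM in tumour 2 (4.87). Scara5, a ferritin receptor, was at 384 against 18.8 CPM in tumour 1 and 92.5 against 6.00 CPM in tumour 2 (4.20), and Pcsk6, a proprotein convertase, at 214 against 8.15 CPM in tumour 1 and 72.7 against 4.83 CPM in tumour 2 (4.41). The other 6 leading genes, Nrk, Stxbp6, Dmkn, Cadm3, Atp1b1 and Akr1c18, had log2 fold changes of 4.69 to 5.48. The genes most lowered were led by Igfbp2, an insulin-like growth factor binding protein (GRCm38 chr1:72824503-72852474), at 189 against 4211 CPM in tumour 1 and 39.7 against 1722 CPM in tumour 2 (-4.85 ± 0.20, adjusted p = 7.86e-06). Its relative Igfbp3 was at 149.8 against 2238 CPM in tumour 1 and 61.6 against 1128 CPM in tumour 2 (-4.03 ± 0.28, adjusted p = 6.70e-05). Spp1, the matricellular cytokine osteopontin, was at 7.19 against 143 CPM in tumour 1 and 45.7 against 785 CPM in tumour 2 (-4.22). Fmod, the collagen-binding proteoglycan fibromodulin, was at 24.4 against 466 CPM in tumour 1 and 8.98 against 166 CPM in tumour 2 (-4.24). Cd34-zero cells were higher in both tumours for all of these, as the same rule asks, and Spp1 was higher in tumour 2 in both classes. Sbspon, F5, Col11a1, Cdkn2a, Megf11, Aqp2, Aqp5 and Lgr5 completed the 12 lowest, with log2 fold changes of -4.61 to -3.94.

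**Figure D3:**
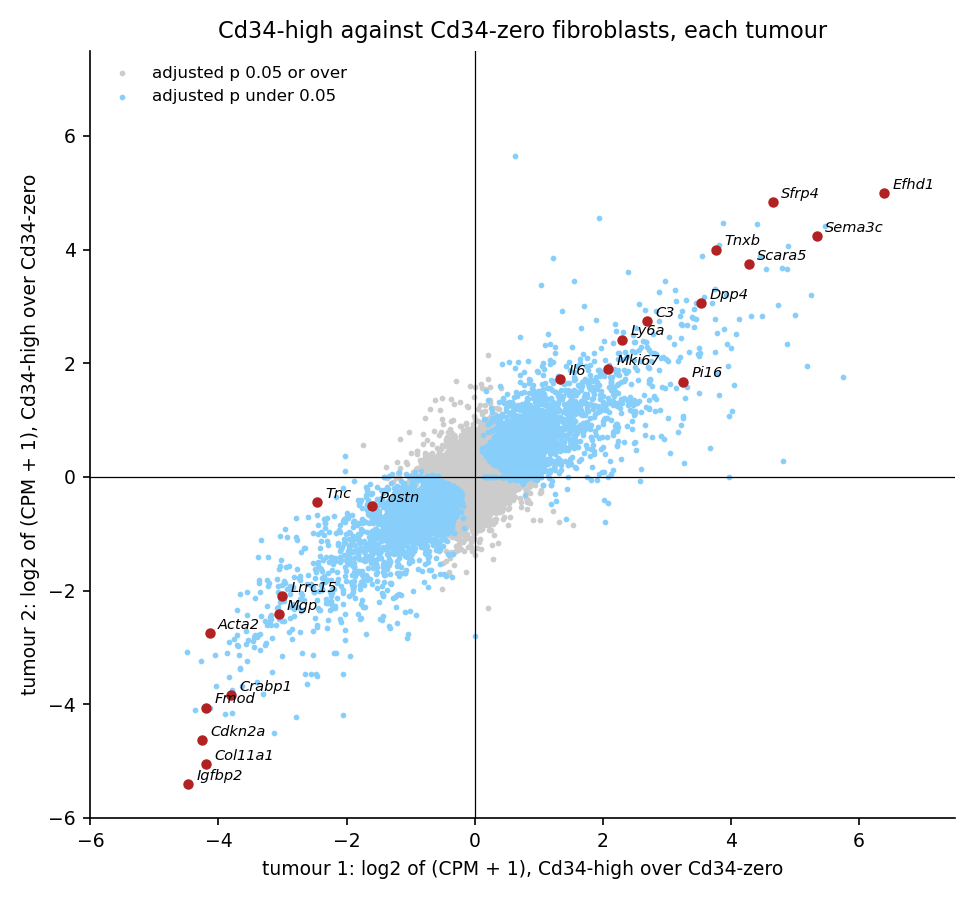
Each of 14955 genes tested, as the log2 ratio of Cd34-high to Cd34-zero levels (CPM + 1) in tumour 1 (horizontal) and tumour 2 (vertical), blue where the adjusted p from limma was under 0.05. The labelled genes run from Efhd1 at the upper right to Igfbp2 at the lower left, with Pi16 and Tnc further from 0 in tumour 1 than in tumour 2; the calls come from a fit over both tumours, so their agreement is in part fixed by it.

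The progenitor list, surface and secreted markers of universal fibroblasts, moved as a whole. All 12 of its tested genes were higher in the members, with a median log2 fold change of 3.50 where the median of all tested genes was -0.01, and the medians by tumour were 3.78 in tumour 1 and 3.20 in tumour 2. The list holds genes that the study and the label name for these very cells, so its direction is no independent evidence. Pi16 was at 1753 against 182 CPM in tumour 1 and 509 against 159 CPM in tumour 2 (2.46 ± 0.31, adjusted p = 0.000964). Cd55, which restrains complement, was at 512 against 32.7 CPM in tumour 1 and 198 against 20.5 CPM in tumour 2 (3.63 ± 0.16, adjusted p = 1.04e-05), and Ly6c1, a surface protein related to Ly6a, at 1086 against 91.5 CPM in tumour 1 and 618 against 40.8 CPM in tumour 2 (3.74). Pi16 separated the classes less in tumour 2, where its Cd34-zero level was like that of tumour 1 and its Cd34-high level was lower. Of 14 adventitial and elastic matrix genes 9 were higher and 3 lower (median 1.25), beside 16.5% and 17.9% of all tested genes. The 9 include Tnxb, a marker with which the cells were proposed, so this count is not independent of the label. Clec3b (tetranectin) was at 1626 against 109 CPM in tumour 1 and 900.3 against 39.5 CPM in tumour 2 (4.20 ± 0.13, adjusted p = 4.00e-06), and Efemp1 (fibulin-3) at 1123 against 151 CPM in tumour 1 and 518 against 76.1 CPM in tumour 2 (2.82). The microfibril genes split: Fbn1 (fibrillin-1) was higher at 3138 against 1533 CPM in tumour 1 and 2182 against 1336 CPM in tumour 2 (0.86 ± 0.12, adjusted p = 0.00137), and Mfap4 lower at 162 against 492 CPM in tumour 1 and 156 against 578 CPM in tumour 2 (-1.75 ± 0.21, adjusted p = 0.000815). Eln, elastin itself, was at 588 against 744 CPM in tumour 1 and 243 against 626 CPM in tumour 2 (-0.86 ± 0.25, adjusted p = 0.0339), a call that was lost without tumour 2 (-0.32, adjusted p = 0.241), with doublets removed (adjusted p = 0.0554), within the middle UMI range (adjusted p = 0.0753) and without hyperplasia 1 (adjusted p = 0.0615).

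Of the inflammatory list, genes of cytokines, chemokines and acute-phase proteins, 10 of 14 were higher in the members and 3 lower, with a median of 1.24. Over all tested genes the shares called were 16.5% higher and 17.9% lower. Il6 was at 663 against 262 CPM in tumour 1 and 509 against 154 CPM in tumour 2 (1.52 ± 0.11, adjusted p = 7.22e-05). Cxcl1, a neutrophil chemoattractant, was at 2204 against 789 CPM in tumour 1 and 3173 against 1007 CPM in tumour 2 (1.56 ± 0.09, adjusted p = 2.45e-05), and Ccl2, which draws monocytes, at 1609 against 945 CPM in tumour 1 and 2882 against 1020.2 CPM in tumour 2 (1.13). Has1, which makes hyaluronan, was at 2458 against 439 CPM in tumour 1 and 1504 against 361 CPM in tumour 2 (2.26), and Ptx3, a soluble pattern receptor, at 1994 against 421 CPM in tumour 1 and 1804 against 399 CPM in tumour 2 (2.20). Members of tumour 2 held more Cxcl1 and Ccl2 than those of tumour 1, and less Il6, Has1 and Ptx3. Members of the list did not all move together. Lif, a cytokine of the interleukin-6 family, was lower at 5.98 against 35.0 CPM in tumour 1 and 21.9 against 61.9 CPM in tumour 2 (-2.19 ± 0.22, adjusted p = 0.000363), and the chemokine Cxcl14 at 270.5 against 3566 CPM in tumour 1 and 584 against 2981 CPM in tumour 2 (-3.04 ± 0.27, adjusted p = 0.000193). Cxcl12 was at 407 against 285 CPM in tumour 1 and 348 against 231 CPM in tumour 2 (0.54 ± 0.16, adjusted p = 0.0379). It no longer passed without tumour 1 (0.56) or without tumour 2 (0.53). Its fold change was 0.03, adjusted p = 0.887 with all other fibroblasts as comparison and 0.16, adjusted p = 0.613 with a Cd34 limit of 10 per 10,000. With more markers of other types at 0 it did not pass (adjusted p = 0.0546). Without the library block 5 of the 14 remained called higher and 2 lower, and Il6 (adjusted p = 0.0874) and Ccl2 (adjusted p = 0.0687) were among those lost. Of 11 complement genes 6 were higher and 1 lower (median 0.85). C3, the central component, was at 1479 against 228 CPM in tumour 1 and 607 against 89.9 CPM in tumour 2 (2.72 ± 0.12, adjusted p = 9.39e-06), and C4b at 568 against 95.2 CPM in tumour 1 and 323 against 67.6 CPM in tumour 2 (2.41). Of 16 interferon-induced genes 6 were higher and 1 lower (median 0.15), with the chemokine Cxcl10 at 172 against 77.2 CPM in tumour 1 and 195 against 33.1 CPM in tumour 2 (1.83).

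The myofibroblastic list moved the opposite way, with 14 of 18 genes lower in the members and 1 higher (median -2.25). By tumour the median was -2.32 in tumour 1 and -1.53 in tumour 2. Among all tested genes 17.9% were called lower and 16.5% higher. The study had described CD34-negative fibroblasts of these tumours as myofibroblastic and CD34-positive ones as inflammatory. The direction of this list and of the inflammatory list is therefore no independent evidence. Acta2 was at 29.6 against 539 CPM in tumour 1 and 134 against 906 CPM in tumour 2 (-3.53 ± 0.27, adjusted p = 0.000106). Tagln (transgelin, which binds actin) was at 62.9 against 1044 CPM in tumour 1 and 132 against 1709 CPM in tumour 2 (-3.89 ± 0.11, adjusted p = 3.01e-06), and Mylk, the kinase that switches on smooth muscle myosin, at 5.69 against 84.1 CPM in tumour 1 and 3.97 against 50.8 CPM in tumour 2 (-3.85). Lrrc15, a surface protein of collagen-rich tumour fibroblasts, was at 70.2 against 570.4 CPM in tumour 1 and 117 against 508 CPM in tumour 2 (-2.61 ± 0.18, adjusted p = 6.59e-05). Cd34-zero cells held the higher level of these 4 genes in both tumours, and members of tumour 2 held more Acta2, Tagln and Lrrc15 than members of tumour 1. Postn (periostin) was at 1278 against 3893 CPM in tumour 1 and 3178 against 4553 CPM in tumour 2 (-1.07 ± 0.30, adjusted p = 0.0282). Tnc (tenascin C) was at 28.6 against 162 CPM in tumour 1 and 568 against 773 CPM in tumour 2 (-1.48 ± 0.39, adjusted p = 0.0231). Without tumour 1 Postn was at -0.55 and Tnc at -0.47, and both calls were lost. Without hyperplasia 1 Tnc was at -1.41, and its call was lost as well. Fap, a surface peptidase used to mark tumour fibroblasts, was the gene that was higher, at 175 against 72.7 CPM in tumour 1 and 163 against 93.9 CPM in tumour 2 (1.03 ± 0.16, adjusted p = 0.00225). Cthrc1, a secreted protein of activated fibroblasts, did not pass at 553 against 382 CPM in tumour 1 and 881 against 615 CPM in tumour 2 (0.52 ± 0.18, adjusted p = 0.0584), but was called higher in the members under 7 alternatives, such as tumour sums only (0.57, adjusted p = 0.00639).

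Genes of the contractile apparatus are known targets of serum response factor, which binds the CArG box. Promoter windows of 300 bases (250 before to 50 after the start) from RefSeq on GRCm38.p6 were searched for this box, whose reverse complement is the same motif. It occurred in 535 of 32851 windows (1.63%), in 3 of the 13 myofibroblastic genes with a window, and in 0 of the 9 progenitor genes with one. The 3 windows are shown as 100 bases around the box, which is in capitals, because these are the genes of the list whose windows hold it. A match describes letters in a window and not binding. Only exact matches of the box were counted, by window over all windows and by gene, from a single window each, in the lists. A gene without a match may hold a box elsewhere or in another form.
Cnn2 (chr10:79988499-79988598, plus strand, box 56 bases before the start): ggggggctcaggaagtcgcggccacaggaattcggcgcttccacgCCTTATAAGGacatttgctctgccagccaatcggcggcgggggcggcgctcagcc
Hopx (chr5:77115152-77115251, minus strand, box 83 bases before the start): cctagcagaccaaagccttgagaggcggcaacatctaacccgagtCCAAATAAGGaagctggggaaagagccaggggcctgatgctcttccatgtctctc
Myl9 (chr2:156775258-156775357, plus strand, box 161 bases before the start): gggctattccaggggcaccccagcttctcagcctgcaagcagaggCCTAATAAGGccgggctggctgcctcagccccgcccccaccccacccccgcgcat
Cnn2 (calponin 2) was at 43.2 against 194 CPM in tumour 1 and 107 against 240.5 CPM in tumour 2 (-1.72 ± 0.19, adjusted p = 0.000577), and Myl9, a regulatory light chain of myosin, at 21.5 against 91.0 CPM in tumour 1 and 22.8 against 126 CPM in tumour 2 (-2.20 ± 0.14, adjusted p = 5.42e-05). Both were lower in the members of both tumours. Hopx, an atypical homeodomain protein, was at 3.52 against 3.57 CPM in tumour 1 and 8.15 against 5.07 CPM in tumour 2 (0.24 ± 0.28, adjusted p = 0.544) and showed no such order. The 3 genes with a box thus did not share a direction.

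Collagen chains were mostly lower in the members, 14 of 23 against 4 higher (median -0.67), where 17.9% of all tested genes were called lower and 16.5% higher. Col12a1, a fibril-associated collagen, was at 484 against 2583 CPM in tumour 1 and 368 against 1879 CPM in tumour 2 (-2.39 ± 0.10, adjusted p = 9.11e-06), and Col8a1, a short-chain network collagen, at 182 against 1445 CPM in tumour 1 and 505 against 1812 CPM in tumour 2 (-2.42 ± 0.27, adjusted p = 0.00053). Col11a1 was at 15.8 against 305 CPM in tumour 1 and 6.06 against 234 CPM in tumour 2 (-4.42). The 4 exceptions included Col3a1, the chain of type III fibrils of loose tissue, at 19161 against 11075 CPM in tumour 1 and 22651 against 11863 CPM in tumour 2 (0.85 ± 0.11, adjusted p = 0.000905) and Col14a1 at 1557 against 459 CPM in tumour 1 and 1361 against 578 CPM in tumour 2 (1.49 ± 0.13, adjusted p = 0.0002). The main chain of type I fibrils, Col1a1, was at 6933 against 11397 CPM in tumour 1 and 12111 against 13769.7 CPM in tumour 2 (-0.46 ± 0.13, adjusted p = 0.0269) and did not pass without tumour 1 (adjusted p = 0.436). Its call was also lost with edgeR (adjusted p = 0.0558), DESeq2 (adjusted p = 0.0693), tumour sums only (adjusted p = 0.0625), no library block (adjusted p = 0.347), the middle UMI range (adjusted p = 0.0546) and without hyperplasia 1 (adjusted p = 0.0703). Of 15 crosslinking and processing enzymes 4 were higher and 3 lower (median -0.18), beside 16.5% and 17.9% of all tested genes. Of 12 metalloproteinases and their inhibitors 1 was higher and 8 lower (median -0.78). The inhibitors went apart, with Timp2 at 2100.2 against 749 CPM in tumour 1 and 948 against 598 CPM in tumour 2 (1.07 ± 0.18, adjusted p = 0.00331) and Timp3, which is bound to matrix, at 575 against 2613 CPM in tumour 1 and 340.1 against 1686 CPM in tumour 2 (-2.26 ± 0.11, adjusted p = 1.49e-05). Mmp13, a collagenase, was at 0.608 against 13.2 CPM in tumour 1 and 0.418 against 31.3 CPM in tumour 2 (-4.76), which rests on few UMIs in the members. The list of the ECM remodelling state, whose genes the study named on these libraries, had 6 of 7 genes lower and 0 higher (median -2.52). Crabp1, which binds retinoic acid in the cytoplasm, was at 38.1 against 546 CPM in tumour 1 and 34.9 against 513 CPM in tumour 2 (-3.85 ± 0.11, adjusted p = 3.01e-06). Mgp (matrix Gla protein, which restrains mineral) was at 1159 against 9683 CPM in tumour 1 and 2148 against 11482 CPM in tumour 2 (-2.75), and Stra6, the retinol transporter, at 4.26 against 60.6 CPM in tumour 1 and 10.2 against 45.0 CPM in tumour 2 (-3.46).

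Genes linked to arrest of the cell cycle and genes of division moved apart, in a comparison that called 16.5% of all tested genes higher and 17.9% lower. Of 14 senescence-associated genes, several of which the study named on these tumours, 10 were lower and 2 higher in the members (median -1.48). Cdkn2a, which encodes p16 and p19, was at 14.7 against 299 CPM in tumour 1 and 7.31 against 206 CPM in tumour 2 (-4.41 ± 0.14, adjusted p = 4.21e-06), and its neighbour Cdkn2b (p15) at 11 against 169 CPM in tumour 1 and 23.8 against 185 CPM in tumour 2 (-3.65 ± 0.19, adjusted p = 2.17e-05). Cdkn1a (p21) was at 278 against 1159 CPM in tumour 1 and 159.8 against 663 CPM in tumour 2 (-2.06 ± 0.08, adjusted p = 7.27e-06), and Lmnb1, a lamin that is lost in senescent cells, was higher at 24.0 against 7.70 CPM in tumour 1 and 44.1 against 16.7 CPM in tumour 2 (1.52). After thinning to 3000 UMIs, Cdkn2a gave a UMI in 2.20% of members and 39.5% of Cd34-zero cells in tumour 1, and in 1.65% and 32.5% in tumour 2 (epithelial barcodes 5.26% and 0.562%). Of 16 proliferation genes 13 were higher and 1 lower (median 1.25). Mki67 was at 27.2 against 5.63 CPM in tumour 1 and 62.9 against 16.2 CPM in tumour 2 (2.08 ± 0.12, adjusted p = 3.45e-05), and Top2a, a topoisomerase of dividing cells, at 37.1 against 5.26 CPM in tumour 1 and 40.1 against 17.5 CPM in tumour 2 (1.99 ± 0.34, adjusted p = 0.00365). With all other fibroblasts as comparison Top2a was at 0.76, adjusted p = 0.051, and cells of tumour 2 with Cd34 below the limit held 53.4 CPM. The gene that was lower was Ccnd2, a cyclin of the G1 phase, at 109 against 189.7 CPM in tumour 1 and 111 against 217 CPM in tumour 2 (-0.89). Division genes were rare in both classes. Mki67 gave a UMI in 2.59% of thinned members and 0.715% of Cd34-zero cells of tumour 1, and in 7.82% and 2.97% of those of tumour 2. Without the library block 1 of these 16 was called higher. Of 15 immediate early genes 2 were higher and 9 lower (median -0.42).

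Signalling lists held genes that moved in both directions, in a comparison that called 16.5% of all tested genes higher and 17.9% lower. Of 26 Wnt genes 6 were higher and 13 lower (median -0.64). Wnt2, a ligand made by stroma, was at 146 against 81.6 CPM in tumour 1 and 124 against 72.0 CPM in tumour 2 (0.81 ± 0.12, adjusted p = 0.00183), and Wnt10b at 18.2 against 0.225 CPM in tumour 1 and 1.46 against 0.167 CPM in tumour 2 (5.47 ± 0.64, adjusted p = 0.000711), a level close to 1 CPM in the members of tumour 2. The transgene's ligand Wnt1 had 24 and 8 UMIs over all members of the tumours and 1 and 0 UMIs over the Cd34-zero cells, and no fold is given. Nkd2, a target that restrains the pathway, was at 17.2 against 197 CPM in tumour 1 and 18.2 against 134 CPM in tumour 2 (-3.36 ± 0.14, adjusted p = 7.86e-06). The antagonists went both ways, since Sfrp4 was higher, while Dkk3 was at 35.2 against 189.9 CPM in tumour 1 and 39.5 against 123 CPM in tumour 2 (-2.16) and Sfrp1 at 147 against 368 CPM in tumour 1 and 147 against 416 CPM in tumour 2 (-1.41). Of 23 TGF-beta and BMP genes 10 were higher and 8 lower (median 0.25). The latent binding proteins parted, with Ltbp1 at 188 against 17.6 CPM in tumour 1 and 100.3 against 21.1 CPM in tumour 2 (2.86 ± 0.24, adjusted p = 0.000158) and Ltbp2 at 31.3 against 448 CPM in tumour 1 and 16.5 against 235 CPM in tumour 2 (-3.83 ± 0.10, adjusted p = 3.01e-06). The ligand Tgfb3 was lower at 25.5 against 155 CPM in tumour 1 and 40.9 against 155 CPM in tumour 2 (-2.36), and the receptor Tgfbr2 higher at 886 against 537 CPM in tumour 1 and 651 against 395 CPM in tumour 2 (0.71). Of 11 Hedgehog genes 3 were higher and 2 lower (median 0.23), among them the co-receptor Cdon at 77.6 against 28.3 CPM in tumour 1 and 61.6 against 27.7 CPM in tumour 2 (1.32). Gli1, the pathway's usual readout, was at 2.06 against 1.84 CPM in tumour 1 and 10.7 against 2.93 CPM in tumour 2 (1.03 ± 0.37, adjusted p = 0.069), and did not pass. It was called higher with doublets removed (1.15, adjusted p = 0.0466), at 8000 to 40000 UMIs (1.23, adjusted p = 0.0398) and within the middle UMI range (1.58, adjusted p = 0.021). With tumour 2 as the lone tumour it was at 1.84, adjusted p = 0.00147, a p that rests on the spread of the other groups. Of 30 growth factor and receptor genes 9 were higher and 10 lower (median close to 0). Igfbp5 was higher at 3874 against 344 CPM in tumour 1 and 949 against 210.5 CPM in tumour 2 (2.82), opposite to Igfbp2 and Igfbp3. Esr1, the oestrogen receptor, was at 46.1 against 6.12 CPM in tumour 1 and 23.8 against 8.77 CPM in tumour 2 (2.35 ± 0.33, adjusted p = 0.0016). Pdgfrb, which pericytes and myofibroblasts carry, was lower at 88.9 against 203 CPM in tumour 1 and 63.5 against 208 CPM in tumour 2 (-1.42).

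Of 27 transcription factors 12 were higher and 10 lower (median 0.13), where 16.5% of all tested genes were called higher and 17.9% lower. Ebf2, a factor of mesenchymal and fat precursors, was at 220.4 against 39.6 CPM in tumour 1 and 113 against 35.7 CPM in tumour 2 (2.08 ± 0.18, adjusted p = 0.000185), and Nfib at 394 against 109.7 CPM in tumour 1 and 232 against 96.4 CPM in tumour 2 (1.55). Runx1 was lower at 169 against 636 CPM in tumour 1 and 297 against 514 CPM in tumour 2 (-1.36 ± 0.22, adjusted p = 0.00269). Scx, the tendon factor scleraxis, was at 0.291 against 6.16 CPM in tumour 1 and 0 against 10.1 CPM in tumour 2. It is at or near 0 in the members, so the fitted -4.88 is no exact fold. Of 13 adipogenic genes 1 was higher and 5 lower (median -0.30), with the lipid droplet gene Plin2 at 47.0 against 87.1 CPM in tumour 1 and 58.5 against 91.0 CPM in tumour 2 (-0.79). Of 7 lobular genes 2 were higher and 2 lower (median 0.25), of 15 glycolysis and hypoxia genes 4 and 2 (median 0.02), and of 8 antigen presentation genes 0 and 4 (median -0.28). Adm, a hypoxia-induced vasodilator, was among the 4 higher at 341 against 131 CPM in tumour 1 and 486 against 63.8 CPM in tumour 2 (2.15 ± 0.34, adjusted p = 0.00262). The lobular and adipogenic lists also came from the study's description of these libraries.

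Markers of other cell types were low in the members. Of the markers tested, calls higher and lower were 1 and 0 of 5 epithelial, 1 and 3 of 5 endothelial, 2 and 3 of 5 pericyte, 1 and 0 of 4 Schwann, 1 and 6 of 8 immune and 0 and 0 of 1 muscle genes, and their part in the results was not tested. Among all tested genes the shares called higher and lower were 16.5% and 17.9%. Summed epithelial markers (10 genes) were at 8.25 and 4.60 CPM in members of tumours 1 and 2, and 3.04 and 1.17 CPM in Cd34-zero cells. Krt19 made up most of the former at 5.53 and 3.97 CPM, and in tumour 2 Krt8, Krt14, Krt17, Csn3, Cldn4 and Cdh1 were at 0. The 9 endothelial markers summed to 10.9 and 22.1 CPM against 23.7 and 36.9, with Tie1 at 0 in the members of both tumours and Cldn5, Vwf and Emcn at 0 in those of tumour 2. Kdr was the endothelial marker called higher in the members, and Tek, named above as higher, is not in this list. The 9 immune markers summed to 19.6 and 12.5 CPM against 15.9 and 15.8, and the 6 pericyte markers to 69.6 and 27.8 against 70.1 and 50.9. Cd3e, the immune marker called higher, stood at 15.9 CPM in members of tumour 1 and 3.76 CPM in those of tumour 2. The pericyte list split, since the potassium channel subunits Kcnj8 and Abcc9 were higher in the members (3.29 and 3.29) and the defining surface gene Mcam was at 0.661 against 8.18 CPM in tumour 1 and 0.209 against 12.7 CPM in tumour 2 (-3.92). Schwann markers (5 genes) summed to 13.9 and 3.97 CPM and muscle markers (4 genes) to 0.899 and 2.09 CPM in the members.

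**Figure D4:**
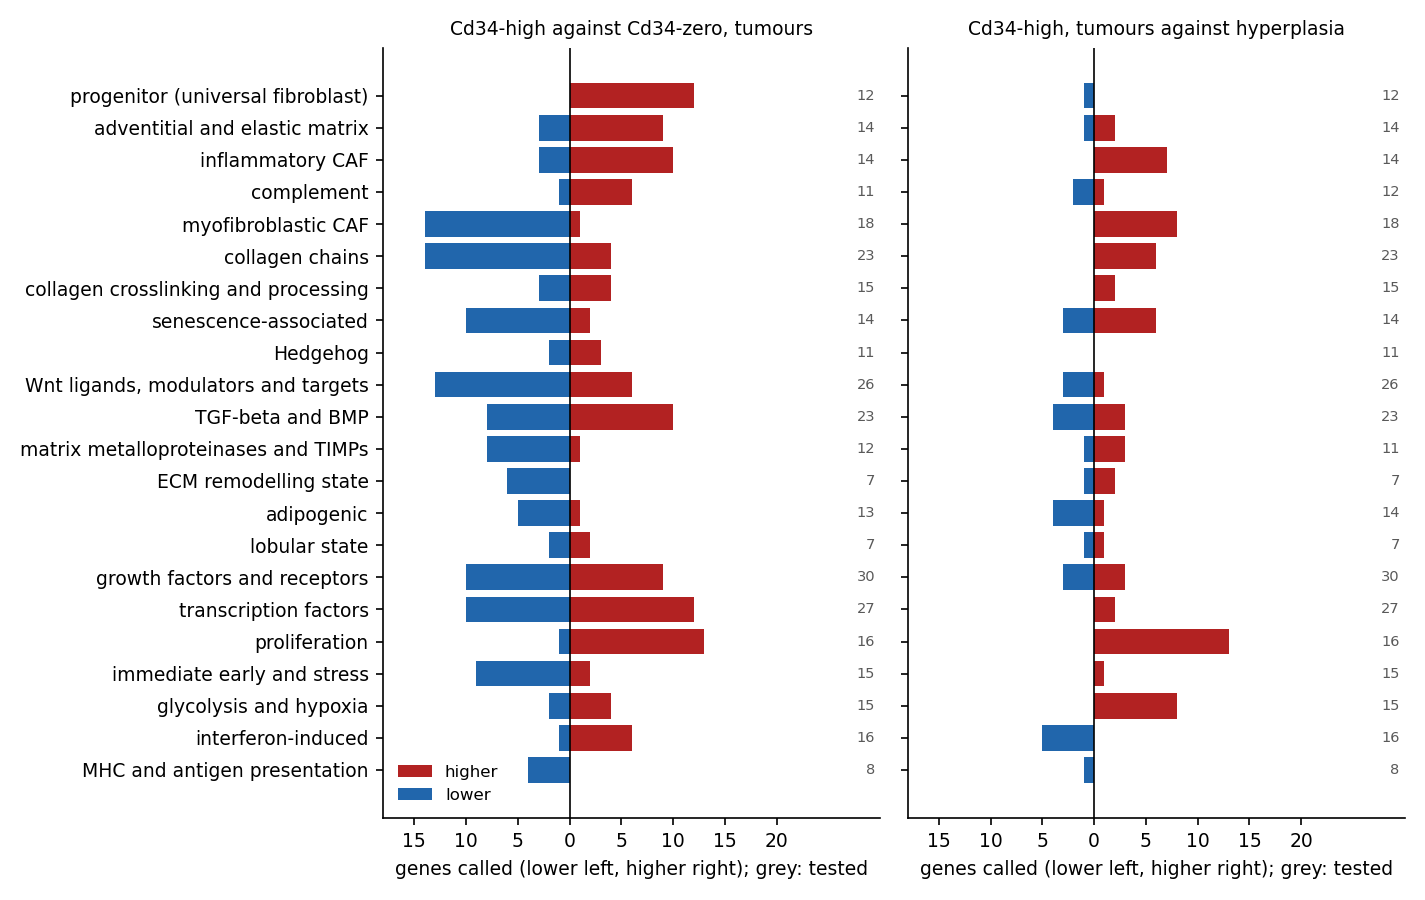
Number of genes called (horizontal axis, lower to the left and higher to the right, adjusted p under 0.05 from limma) in each of 22 lists, with the number tested in grey. In the left panel, Cd34-high against Cd34-zero in tumours, all 12 progenitor genes are higher and 14 of 18 myofibroblastic genes lower; in the right panel, Cd34-high cells of tumours against hyperplasia, 13 of 16 proliferation genes are higher.

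The same division, by the same limits on Cd34, was examined in the hyperplastic glands, which the choice of members did not use. There limma called 2950 of 14955 genes higher in Cd34-high cells (19.7%) and 2738 lower (18.3%). More were lower than higher in 8 alternatives, among them DESeq2 size factors (2488 higher and 3064 lower) and the members' middle UMI range (1325 and 1785). Which direction held more calls was not settled. All 12 progenitor genes were higher (median 5.25), 6 of 7 ECM remodelling genes were lower (median -2.12), and 10 of 14 inflammatory genes were higher (median 1.28). The progenitor list holds markers of the label, and the study named the ECM remodelling genes on these libraries. The direction of these lists is therefore no independent evidence here either. The myofibroblastic list had 2 higher and 7 lower of 18 (median -0.44). Cells within the interquartile range of the members' UMI counts in each library (the members' middle UMI range) gave 3110 called genes. Members were still the deeper cells there, with medians of 10703 and 10974 UMIs against 9370 and 9324. Cells of 8000 to 40000 UMIs gave 3749 (1732 higher and 2017 lower). The count was 2454 without hyperplasia 1 (1098 and 1356) and 1839 without hyperplasia 2 (880 and 959).

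A test of the signed difference of the log2 fold changes (tumour minus hyperplasia) called 1051 genes with a positive difference (7.03%) and 1423 with a negative one (9.52%). Positive differences were the more numerous with DESeq2 size factors (1151 and 1076), at 8000 to 40000 UMIs (796 and 661), within the members' middle UMI range (638 and 376) and without hyperplasia 1 (314 and 196). The sign is not the size of an effect, as a positive difference can come from a stronger rise in tumours or from a deeper fall in hyperplasia. In hyperplasia Tagln was at 2.74 against 2.80 and 4.19 against 2.23 CPM, so that both classes were low, and its fold changes of -3.89 in tumours and 0.45 in hyperplasia differed by -4.34 ± 0.38, adjusted p = 0.000933. Pi16 was at 1538 against 17.6 and 2030.3 against 19.7 CPM, and its fold changes of 2.46 in tumours and 6.53 in hyperplasia differed by -4.06 ± 0.53, adjusted p = 0.00394. The Cd34-zero cells of tumours held more Pi16 than those of hyperplasia, and the same was so of Anxa3, an annexin, whose fold changes of 1.75 in tumours and 5.36 in hyperplasia differed by -3.61 ± 0.33, adjusted p = 0.00113. Of the 12 progenitor genes, all raised in both tissues, 8 had a negative difference and 0 a positive one. The 8 include Ly6a and Dpp4, markers with which the cells were proposed, so the count is not independent of the label. Within the members' middle UMI range Sema3c did not pass (adjusted p = 0.129), and the differences of Ly6a and Dpp4, which are given as description, went from -0.83 and -1.20 to -0.25 and -0.67. The fold changes of Clec3b were 4.20 in tumours and 2.11 in hyperplasia (2.08 ± 0.19, adjusted p = 0.00108), where Cd34-zero cells of hyperplasia held 509.8 and 568 CPM of Clec3b. Il33, an alarmin cytokine, was at 366 against 242 and 318 against 339 CPM in tumours and at 137 against 3.77 and 254 against 6.98 CPM in hyperplasia (-4.86 ± 0.37, adjusted p = 0.000641). Of 13 adipogenic genes 7 had a positive difference. In hyperplasia 11 of the 13 were lower in Cd34-high cells (median -1.06) and in tumours 5 (median -0.30). Cebpd, a factor of early fat differentiation, turned direction, with fold changes of 0.70 in tumours and -0.88 in hyperplasia (1.58 ± 0.19, adjusted p = 0.00305). These calls rest on both hyperplastic glands and on the block. The count was 510 without hyperplasia 1, 291 without hyperplasia 2, 1014 within the members' middle UMI range and 197 without the library block. The Pi16 difference was -4.04 without hyperplasia 1 and -3.89 without hyperplasia 2, and its call was lost in both. Tagln did not pass with doublets removed (-5.60, adjusted p = 0.0518) or within the middle UMI range (-4.55, adjusted p = 0.121).

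Cd34-high cells of the tumours were then compared with Cd34-high cells of the hyperplastic glands. In 1 limma-voom fit of 6 libraries (puberty and adult joined as normal), 691 of 15431 genes were higher in tumours (4.48%) and 442 lower (2.86%). With the mouse as a block, as hyperplasia and tumour of 1 number come from the same animal, the counts were 1386 and 1078. Without hyperplasia 1 or hyperplasia 2 no gene passed, with 2788 and 3425 genes at an unadjusted p under 0.05, so all adjusted p-values in this comparison depend on both glands. Without tumour 2 there were 704 calls, with doublets removed 584, and with a Cd34 limit of 10 per 10,000 there were 634.

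For the leading genes tumours and glands did not overlap, as the rule for naming them asks. Chl1, a neural adhesion molecule, was at 90.8 and 95 CPM in the tumours against 0.772 and 0.528 CPM in the hyperplastic glands (7.2 ± 0.69, adjusted p = 0.00645). The cytokine gene Tnfsf8 (CD30 ligand) was at 24.0 and 43.0 CPM in the tumours against 0.386 and 0.25 CPM in the hyperplastic glands (6.55 ± 0.71, adjusted p = 0.0089), and the chemokine Cxcl5 at 23.4 and 157 CPM in the tumours against 0.926 and 0.389 CPM in the hyperplastic glands (6.53 ± 1.44, adjusted p = 0.0402). Nrk, a kinase, was at 44.4 and 33.8 CPM in the tumours against 0.888 and 0.555 CPM in the hyperplastic glands (5.87), and at 57.5 and 17.7 CPM in puberty and adult. Acta2 was at 29.6 and 134 CPM in the tumours against 0.849 and 1.33 CPM in the hyperplastic glands (5.72 ± 1.04, adjusted p = 0.0268), with 28.6 CPM in puberty and 15.3 in the adult. The members thus held more Acta2 than Cd34-high cells of hyperplasia, and those of tumour 1 held about as much as those of normal puberty. Cell cycle genes made up the rest of the 8, with Mki67 at 27.2 and 62.9 CPM in the tumours against 1.74 and 0.167 CPM in the hyperplastic glands (6.27 ± 1.30, adjusted p = 0.0349, on 45 and 6 UMIs in the glands) and Ube2c and Pclaf at log2 fold changes of 5.66 and 5.39. Of the lowered genes, Cxcl13, which draws B cells, was at 11.1 and 2.30 CPM in the tumours against 163 and 199 CPM in the hyperplastic glands (-4.42 ± 0.55, adjusted p = 0.0109). Inmt, a methyltransferase, was at 5.05 and 6.06 CPM in the tumours against 89.5 and 92 CPM in the hyperplastic glands (-4.06 ± 0.32, adjusted p = 0.00539), and Krt19 at 5.53 and 3.97 CPM in the tumours against 40.5 and 115 CPM in the hyperplastic glands (-3.66 ± 0.59, adjusted p = 0.0184). Itgb7, Cpe, Spock2 and Ppl had log2 fold changes of -4.23 to -3.06. Hoxc10, a homeobox gene of positional identity, had 0 UMIs over all members of both tumours and 26.2 and 35.2 CPM in hyperplasia, which makes it at least 41.8-fold lower (a count of 3 allowed in tumour 2 against the lower gland). With doublets removed, Acta2 (4.77, adjusted p = 0.0901) and Cxcl5 (6.56, adjusted p = 0.0583) did not pass. Mki67 did not pass without tumour 2 (adjusted p = 0.052), with a Cd34 limit of 10 per 10,000 (adjusted p = 0.0563) or with a fibroblast limit of 150 (adjusted p = 0.104). The log2 value of Mki67 was 7.69 without hyperplasia 1 and 4.37 without hyperplasia 2. The same fits gave 7.31 and 3.51 for Ube2c and 6.36 and 4.06 for Pclaf. The fibroblast limit of 150 also ended the calls of Acta2 (adjusted p = 0.0768), Cxcl5 (adjusted p = 0.096), Top2a (adjusted p = 0.0813), Ube2c (adjusted p = 0.091) and Pclaf (adjusted p = 0.0529). The Cd34 limit of 10 ended those of Ube2c (adjusted p = 0.0564), Cpe (adjusted p = 0.0604) and Ppl (adjusted p = 0.0855). Cxcl5 did not pass with tumour and hyperplasia libraries only (adjusted p = 0.0574) or without puberty (adjusted p = 0.0569), and Ppl not without tumour 2 (adjusted p = 0.0531). Krt19 did not pass without tumour 1 (adjusted p = 0.0834), nor did Itgb7, Cpe and Ppl.

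**Figure D5:**
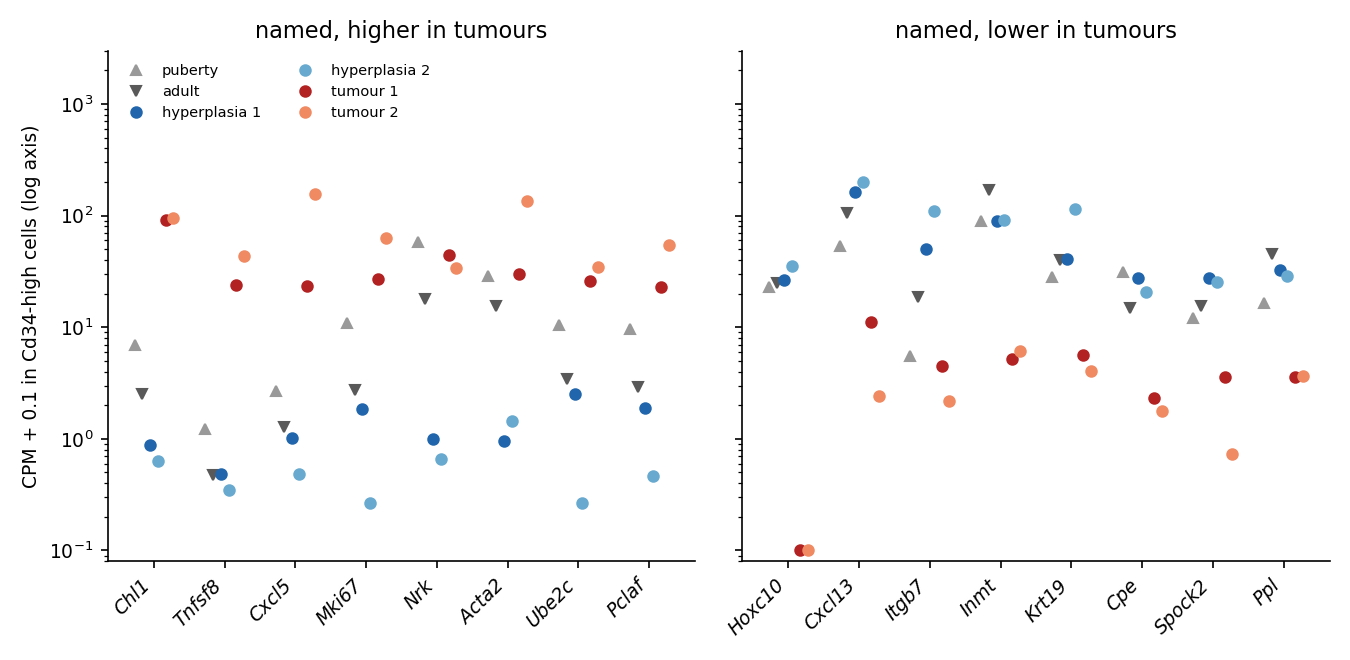
Levels (CPM + 0.1, log axis) of the 8 most raised and 8 most lowered genes in Cd34-high cells of the 6 libraries of the fit. In every gene the 2 tumours lie on 1 side of the 2 hyperplastic glands, as the rule for naming them asks. Hoxc10 is at 0 in both tumours and at 26.2 and 35.2 CPM in the glands.

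By list, 13 of 16 proliferation genes were higher in the members of tumours than in Cd34-high cells of hyperplasia and 0 lower (median 3.74 beside 0.00 for all tested genes). Among all tested genes 4.48% were called higher and 2.86% lower. Top2a was at 37.1 and 40.1 CPM in the tumours against 2.28 and 0.444 CPM in the hyperplastic glands (5.37 ± 1.01, adjusted p = 0.0289), and Pcna, which also serves repair, was at 53.1 and 64.8 CPM in the tumours against 73.6 and 62.7 CPM in the hyperplastic glands (-0.21 ± 0.17, adjusted p = 0.438). The count was 8 with doublets removed, 8 without tumour 2, and 3 with the stricter fibroblast limit. Of 18 myofibroblastic genes 8 were higher and 0 lower (median 1.77), and 3 were with doublets removed. Cthrc1 was at 553 and 881 CPM in the tumours against 32.3 and 13.4 CPM in the hyperplastic glands (5.14 ± 0.51, adjusted p = 0.00715), and Tagln at 62.9 and 132 CPM in the tumours against 2.74 and 4.19 CPM in the hyperplastic glands (4.71 ± 0.43, adjusted p = 0.00539, and 3.54, adjusted p = 0.0752 with doublets removed). A doublet score marked 10.3% of members in tumour 1 and 0.810% in tumour 2, against 7.44% and 10.2% in the hyperplastic glands. Their part in these results was not tested beyond these values.

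Of 14 inflammatory genes 7 were higher in the tumours' members and 0 lower (median 1.03), beside 4.48% and 2.86% of all tested genes. Cxcl2 was at 259 and 1163 CPM in the tumours against 48.3 and 81.7 CPM in the hyperplastic glands (3.27 ± 0.56, adjusted p = 0.023), Ccl2 at 1609 and 2882 CPM in the tumours against 438 and 232 CPM in the hyperplastic glands (2.81 ± 0.34, adjusted p = 0.0107), and Saa3, an acute-phase protein, at 25.3 and 50.8 CPM in the tumours against 1.24 and 2.00 CPM in the hyperplastic glands (4.35 ± 0.43, adjusted p = 0.00658). The groups did not overlap for these 3 genes, but they were picked as examples after their values were seen, so this adds no support. Of 23 collagen chains 6 were higher and 0 lower (median 0.69), with Col8a1 at 182 and 505 CPM in the tumours against 17.3 and 4.89 CPM in the hyperplastic glands (5.20 ± 0.59, adjusted p = 0.00921). Timp1, a metalloproteinase inhibitor, was at 444 and 1282 CPM in the tumours against 25.6 and 27.6 CPM in the hyperplastic glands (4.92 ± 0.38, adjusted p = 0.00539). Of 15 glycolysis and hypoxia genes 8 were higher (median 1.22), among them the glucose carrier Slc2a1 at 26.7 and 56.2 CPM in the tumours against 11.9 and 11.6 CPM in the hyperplastic glands (1.61 ± 0.35, adjusted p = 0.0396), but 1 was called without tumour 2. Of 14 senescence-associated genes 6 were higher and 3 lower (median 0.68). Cdkn2a was at 14.7 and 7.31 CPM in the tumours against 1.35 and 1.61 CPM in the hyperplastic glands (3.11 ± 0.50, adjusted p = 0.0185). In tumour 1 a smaller share of thinned members than of epithelial barcodes gave a Cdkn2a UMI (2.20% against 5.26%, 2 of 38 barcodes). In tumour 2 the order was reversed. Cdkn1a was lower at 278 and 159.8 CPM in the tumours against 509 and 702 CPM in the hyperplastic glands (-1.53 ± 0.31, adjusted p = 0.0331). Slc2a1 did not pass without tumour 2 (adjusted p = 0.0652), with doublets removed (adjusted p = 0.0544) or with a Cd34 limit of 10 per 10,000 (adjusted p = 0.0744). Cdkn2a did not without tumour 1 (adjusted p = 0.0679), with doublets removed (adjusted p = 0.0832) or with a fibroblast limit of 150 (adjusted p = 0.0572). Cdkn1a did not pass with tumour and hyperplasia libraries only (adjusted p = 0.0521).

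Of 16 interferon-induced genes 5 were lower and 0 higher (median -0.91, 11 lower and 1 higher with the mouse block), with Irf7 at 18.4 and 19.0 CPM in the tumours against 44.2 and 39.6 CPM in the hyperplastic glands (-1.13 ± 0.21, adjusted p = 0.0272). Of 14 adipogenic genes 4 were lower and 1 higher (median -0.81), where 2.86% of all tested genes were called lower and 4.48% higher. Fabp4, a fatty acid carrier, was at 15.9 and 7.73 CPM in the tumours against 44.2 and 83.8 CPM in the hyperplastic glands (-2.12 ± 0.40, adjusted p = 0.0288). Of the 12 progenitor genes 1 was lower and 0 higher (median -0.99), which was Stmn4 at 4.71 and 7.10 CPM in the tumours against 23.9 and 42.3 CPM in the hyperplastic glands (-2.59 ± 0.36, adjusted p = 0.013). Without tumour 1 the count was 9 lower, and without tumour 2 it was 1, each from a lone tumour whose spread is taken from the other groups. Stmn4 itself (adjusted p = 0.0813) and Irf7 (adjusted p = 0.0761) did not pass without tumour 1, nor Irf7 with a fibroblast limit of 150 (adjusted p = 0.0569). Pi16 was then at -1.82, adjusted p = 0.00865, on the 247 members of tumour 2 alone and with the same borrowed spread. Pi16 was at 1753 and 509 CPM in the tumours against 1538 and 2030.3 CPM in the hyperplastic glands (-0.98 ± 0.53, adjusted p = 0.269), and its direction turned without tumour 2 (0.02, adjusted p = 0.975). Dpp4 was at 337 and 136 CPM in the tumours against 409.9 and 412 CPM in the hyperplastic glands, and Ly6a at 2120.3 and 1355 CPM in the tumours against 1173 and 1693 CPM in the hyperplastic glands. Of the remaining lists, calls higher and lower were 2 and 1 of 14 adventitial genes, 1 and 2 of 12 complement genes, 2 and 0 of 15 crosslinking enzymes, 3 and 1 of 11 metalloproteinases and inhibitors, and 2 and 1 of 7 ECM remodelling genes. They were 1 and 3 of 26 Wnt genes, 3 and 4 of 23 TGF-beta and BMP genes, 3 and 3 of 30 growth factor genes, 1 and 1 of 7 lobular genes, 1 and 0 of 15 immediate early genes, 0 and 1 of 8 antigen presentation genes, 2 and 0 of 27 transcription factors (Runx1, at 169 and 297 CPM in the tumours against 31.3 and 22.2 CPM in the hyperplastic glands, and Meox1), and 0 and 0 of 11 Hedgehog genes, of which DESeq2 called 2 lower.

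Hox genes of the Hoxc cluster were not equal in the tumours. Hoxc8 was at 1.19 CPM in members of tumour 1 and 45.3 in tumour 2, against 40.7 and 55.4 in hyperplasia. Hoxc9 was at 1.48 and 13.8 CPM against 17.7 and 26.6, and Hoxc6 at 6.51 and 20.5 against 23.1 and 22.8. Hoxc4 went the other way, at 25.3 and 12.7 CPM against 19.99 and 16.9. Tumour 1 was thus below tumour 2 in Hoxc6, Hoxc8 and Hoxc9 and above it in Hoxc4, while Hoxc10 was at 0 in both tumours. Which gland each tumour arose in is not given by the labels, and its part in these values was not tested.

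Members of the 2 tumours differed from each other, which is described without a test as each tumour is 1 library. The median log2 ratio of tumour 2 over tumour 1 members was -1.46 over the progenitor list, -0.89 over the adventitial list, 1.15 over the myofibroblastic list and 1.12 over the proliferation list. Members of tumour 2 sat nearer the limit, with a median of 7.17 Cd34 UMIs per 10,000 against 11.1 in tumour 1. Within the class of 5 to 10 per 10,000, Pi16 was at 1086 CPM in tumour 1 and 425 in tumour 2, and Acta2 at 44.7 and 147 CPM. Tnc was at 28.6 CPM in members of tumour 1 and 568 in those of tumour 2, and Spp1 at 7.19 and 45.7 CPM. After thinning to 3000 UMIs, 81.7% (80.3 to 83.0) of members gave a Pi16 UMI in tumour 1 and 46.1% (39.7 to 52.6) in tumour 2, and an Acta2 UMI 3.82% (3.19 to 4.53) and 16.5% (12 to 21.7). Epithelial barcodes, whose basal cells are known to express Acta2, gave Pi16 in 2.63% and 0.562% and Acta2 in 63.2% and 79.2%. Within tumour 2, members with a Tnc UMI gave Pi16 in 21.8% of cells and members without one in 59.6%. In tumour 1 these shares were 48.9% and 83.1%. Dpp4 and Pi16 went together in tumour 1 (87.8% of cells with and 72.5% of cells without a Dpp4 UMI gave Pi16). In tumour 2 these shares were 50% and 44.4%, and the difference between the tumours was not tested. The smaller number of members in tumour 2, with 243 cells after thinning, limits these shares.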

How the data were processed

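Fibroblasts of 13 libraries were captured with a 10x 3′ chemistry. The deposited files hold raw counts of UMIs, without normalization, in filtered matrices of 32285 genes. The submitters' processing notes name Cell Ranger 6.1.2 and mm10. Library totals were 56551189 to 112550204 UMIs. Gene positions came from GENCODE on GRCm38, in which 32158 of 32285 identifiers (99.6%) were found. Ly6a, Ly6c1 and C4b have close relatives that share sequence, so their own levels are uncertain.

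UMIs were summed per library and class, since cells are not replicates, and each mouse gave 1 library per tissue. Cd34-high and Cd34-zero sums of both tumours and both hyperplastic glands (8 sums) were fitted with limma-voom 3.58.1 (TMM, filterByExpr from edgeR 4.0.16, R 4.3.3) with the library as block, as the study used limma-voom on such sums. Cd34-high sums of tumours, hyperplasia and normal glands were fitted without a block. Hyperplasia and tumour of 1 number come from the same mouse per the labels, so the numbers pair the samples, and deviations from the group means correlated at 0.0565 over 15435 genes between them. The 10 genes of the selection stayed in the fits and were not counted. With the library block, p-values measure how the ratio of the classes varies between the 2 libraries of a tissue, pooled over tumour and hyperplasia. Between tissues they measure the spread of libraries within groups, which includes puberty against adult. The 2 mice of each tissue differ in age. Intervals cover counting error only (Clopper-Pearson), and levels are UMIs of 3′ ends. Limits on depth also changed the calls. Those of the difference went from 2474 to 1457 at 8000 to 40000 UMIs and to 1014 within the middle UMI range.

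Genes named were the 12 highest and 12 lowest of the tumour comparison, 6 and 6 of the difference, and 8 and 8 between tumours and hyperplasia, among genes with adjusted p under 0.05 and at least 20 CPM in both libraries of the higher class (for the difference, of any of the 4 classes), moving alike in every library, without predicted, mitochondrial or ribosomal genes. Members of 28 gene lists were named as well. The cells, lists and tests were chosen with earlier results of these data known. The members named as examples from the lists were chosen after their values were seen. Doublets (Scrublet scores, 0.8% per 1000 barcodes) were kept, as the selection does not remove them, and removed as an alternative. Alternatives covered edgeR's quasi-likelihood test, DESeq2 1.42.0, its size factors, the low-count filter, limits on Cd34, fibroblast genes, depth and mitochondrial share, more markers of other types at 0, the comparison cells, blocks, and leaving out each library. A limit to the members' middle UMI range, and leaving out puberty or adult, were chosen after seeing the data. The fits were tried on simulated counts, with the same mean in every library except for genes given a known fold. Such counts hold no effects of mouse or library, so they do not show how the fits handle these. A few single genes of the lists are counted with their lists and not reported here by name.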

Additional observations from a re-analysis of the deposited data

Results flagged for a closer look

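The 12 genes below stood out because the log2 fold change between Cd34-high and Cd34-zero cells differed between tumours and hyperplasia by a test of the difference itself (limma, tumour minus hyperplasia, with the same order in every pair of libraries). A positive or negative difference is signed and is no statement on the size of either effect. It was positive for Gfra2, a receptor of the neurturin ligand (4.26 ± 0.20, adjusted p = 0.000331), Vtn, vitronectin (3.49), Glrb, a glycine receptor subunit (3.19), Hopx (3.16), Steap4, a metalloreductase (3.11), and Saa3 (2.99). Gfra2 was at 25.3 against 4.17 CPM in tumour 1 and 34.7 against 6.74 CPM in tumour 2, and at 10.9 against 31.5 and 8.25 against 30.6 CPM in hyperplasia, so that its order turned between the tissues. The fold changes of Hopx were 0.24 in tumours and -2.92 in hyperplasia, and those of Saa3 0.51 in tumours and -2.48 in hyperplasia, so both fell in hyperplasia. The difference was negative for Ecscr, an endothelial surface protein (-8.41 ± 0.95, adjusted p = 0.00238), Mgll, a monoacylglycerol lipase (-7.12), Tmeff1 (-6.62), Ltbp2 (-6.21), Pmaip1, the cell death protein Noxa (-5.88), and Krt19 (-5.64). These negative differences rest on few UMIs in the Cd34-zero cells of hyperplasia, at 1 and 5 in the 2 glands for Ecscr, 4 and 25 for Mgll, 5 and 3 for Tmeff1, 1 and 1 for Ltbp2, 4 and 4 for Pmaip1 and 0 and 3 for Krt19, so the fitted values are no exact folds. Ltbp2 was low in both classes of hyperplasia, with UMIs of 26 against 1 and 31 against 1, and its fold change in tumours was -3.83. Krt19 had UMIs of 1049 against 0 and 4140 against 3 in hyperplasia. Ecscr was at 13.6 against 35.7 CPM in tumour 1 and 41.6 against 57.1 CPM in tumour 2. Saa3, Ecscr, Mgll and Krt19 did not pass without hyperplasia 2 (adjusted p = 0.117, 0.0757, 0.085 and 0.0853), and Krt19 not without hyperplasia 1 either (adjusted p = 0.0526). Saa3 was at 1.66, adjusted p = 0.462 with a fibroblast limit of 150 per 10,000, and Krt19 at -3.17, adjusted p = 0.0709 within the members' middle UMI range. Without the library block Vtn, Saa3, Ecscr, Ltbp2 and Krt19 did not pass.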

How the results depend on the processing

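For Cd34-high against Cd34-zero cells in tumours (5146 genes) DESeq2 gave 2693, no replicate block 2288, and leaving out 1 library 1984 (without tumour 1) to 5521. In hyperplasia (5688) DESeq2 gave 3711, 8000 to 40000 UMIs 3749, the members' middle UMI range 3110, no replicate block 2903, and leaving out 1 library 1839 to 6731. For the difference of effects (2474) DESeq2 gave 1449, 8000 to 40000 UMIs 1457, a fibroblast limit of 150 per 10,000 1484, the middle UMI range 1014, no replicate block 197, and leaving out 1 library 291 to 3232. Between Cd34-high cells of tumours and hyperplasia (1133) DESeq2 gave 2141, doublets removed 584, a Cd34 limit of 10 per 10,000 634, tumour and hyperplasia libraries only 639, the replicate block by mouse 2464, and leaving out 1 tumour or hyperplasia library 0 to 1267. Leaving out puberty gave 675 and leaving out adult 770. The share of calls that were higher ranged over the alternatives from 43.4% to 53.7% in tumours (47.8% as reported) and from 42.6% to 54.5% in hyperplasia (51.9%), so it lay on both sides of an even split in each. It moved from 42.5% to 51.7% (DESeq2 size factors), 62.9% (middle UMI range), 54.6% (8000 to 40000 UMIs) and 61.6% (without hyperplasia 1) for the difference, and from 61.0% to 48.8% (fibroblast limit of 150) between tissues. The causes were not tested.

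The library block in tumours and the mouse block between tissues are the paired fits. Without the library block Eln, Il6, Cxcl2, Cxcl12, Ccl2, Postn, Tnc, Col1a1, Timp2, Mki67, Cenpf, Tgfbr2, Plin2, Cebpd, Krt19 and Cxcl10 were among the genes no longer called in tumours, and with DESeq2 Cxcl12, Tnc, Col1a1 and Top2a were not. Cdk1, of the proliferation list, was the named gene whose call between tissues was lost under the mouse block (5.99, adjusted p = 0.0573). Its call was also lost with DESeq2 size factors (adjusted p = 0.052), doublets removed (adjusted p = 0.0548) and a Cd34 limit of 10 (adjusted p = 0.0683). The same held for a fibroblast limit of 150 (adjusted p = 0.0815) and more markers of other types at 0 (adjusted p = 0.0623). The share of Cd34-high cells differed by -17.3 points with or without this replicate block (sign-flip permutation, exact p = 0.5, which 2 mice cannot undercut), and its range was -33.5 to -1.06 points when 1 library was left out. A log2 value changed sign for Hopx in tumours with a Cd34 limit of 10 (-0.55), all other fibroblasts as comparison (-0.17), no replicate block (-0.032) and without tumour 2 (-0.0066), for Ly6a in the difference with all other fibroblasts (0.051). Between tissues, values with 1 library left out ranged for Ly6a from -0.081 to 0.62, for Tnxb from -0.69 to 0.29 and for Pi16 from -1.82 to 0.016, and for Hopx in tumours they ranged from -0.0066 to 0.67. The small number of members in tumour 2 (247) limits its sums, with 4787223 UMIs in all against 37811288 in tumour 1. Each of its members was deeper, with a median of 18638 against 10306 UMIs.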
